A study of Mus musculus with 18 samples.

Results

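The late spermatocyte and meiotic division genes were followed across cultured mouse testes: Ccna1, Hspa2, Cdc25c, Fbxo43, Aurkc, Cks2, Mybl1, Pttg1, Nek2 and Ccnb3. They were chosen by name, with earlier results of these data known. Most were chosen for roles at the end of meiotic prophase and in the divisions that follow. Ccnb3 is instead a cyclin of early meiotic prophase, and Mybl1 encodes a factor that switches on pachytene genes. All of them, 10 of 10, were found among the 22657 genes of the table. RNA-seq values were available for 18 samples in 6 groups of 3, all of them whole testes of ICR mice cultured for 48 h. A0, A10 and A50 came from mice without busulfan and were cultured with 0, 10 or 50 μg/mL of alginate oligosaccharides (AOS), short sugar chains made from the alginate of brown seaweed. B0, BA10 and BA50 came from mice that received busulfan once, at 40 μg per g body weight and 3 weeks of age,, and their testes met the same AOS concentrations in culture. Busulfan is an alkylating anti-cancer drug that damages dividing germ cells. The testes were taken 2 weeks after the injection, and the mice without busulfan were of similar age. AOS was given only in the dish, and every group shared the culture medium with serum. The comparisons asked how busulfan and AOS, alone and together, moved these genes.

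In male meiosis, spermatocytes spend a long prophase pairing and recombining their chromosomes and then pass quickly through a pair of divisions to give round spermatids. The way out of prophase needs active CDK1, which depends on a cyclin partner, on removal of inhibitory phosphates by CDC25 phosphatases, on small CKS subunits and on the chaperone HSPA2. Chromosome separation then waits for the anaphase-promoting complex, which EMI proteins hold back and which destroys securin so that cohesin can be cut, while Aurora and NEK2 kinases act on kinetochores and centrosomes.

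The promoters of Nek2, Cks2 and Ccnb3, which were among the genes with the largest differences between busulfan and untreated testes, and of Ccna1, which differed less, are shown as 250 bases before the transcription start, 5′ to 3′ on the strand of the gene. They are shown because these genes lay lower together after busulfan, and because one of the genes followed, Mybl1, encodes A-MYB, the transcription factor that switches on pachytene genes. Whether A-MYB acts on these genes was not tested. Capitals mark MYB letters (TAACTG as well as TAACGG, with CAACTG as well as CAACGG) and the CCAAT box, each searched on both strands, so that some matches are printed as their reverse complement. The sequences are from RefSeq (GRCm38.p6), at chr1:191821223-191821472 on the plus strand for Nek2, chr13:51644982-51645231 on the plus strand for Cks2, chrX:7041620-7041869 on the minus strand for Ccnb3 and chr3:55055056-55055305 on the minus strand for Ccna1. The Ccna1 stretch lies wholly inside the span of its gene (chr3:55045469-55057634), so the start it precedes is an internal one.
Nek2: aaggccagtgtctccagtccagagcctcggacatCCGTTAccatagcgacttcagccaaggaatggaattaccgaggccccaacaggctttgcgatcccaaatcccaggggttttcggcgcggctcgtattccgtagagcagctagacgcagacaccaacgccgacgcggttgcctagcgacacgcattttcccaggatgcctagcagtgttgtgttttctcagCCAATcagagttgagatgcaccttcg
Cks2: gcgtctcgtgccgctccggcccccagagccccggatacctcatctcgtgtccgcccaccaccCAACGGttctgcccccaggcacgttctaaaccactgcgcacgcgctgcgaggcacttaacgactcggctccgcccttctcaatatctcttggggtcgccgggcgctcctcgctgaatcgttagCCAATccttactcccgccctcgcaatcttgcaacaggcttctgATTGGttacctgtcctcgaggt
Ccnb3: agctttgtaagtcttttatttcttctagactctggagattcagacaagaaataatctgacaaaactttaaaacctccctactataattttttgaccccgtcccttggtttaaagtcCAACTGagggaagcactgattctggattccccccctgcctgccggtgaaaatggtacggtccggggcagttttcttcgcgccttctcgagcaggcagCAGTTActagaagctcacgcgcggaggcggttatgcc
Ccna1: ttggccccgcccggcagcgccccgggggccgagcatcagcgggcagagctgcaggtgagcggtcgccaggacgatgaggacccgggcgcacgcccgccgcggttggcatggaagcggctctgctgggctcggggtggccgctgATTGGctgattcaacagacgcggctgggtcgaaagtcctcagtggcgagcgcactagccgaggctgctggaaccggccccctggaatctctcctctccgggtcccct

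Promoters were held for 7 of the 10 genes, those of Ccna1, Hspa2, Aurkc, Cks2, Pttg1, Nek2 and Ccnb3. MYB letters were present in 4 of these 7 (Hspa2, Cks2, Nek2 and Ccnb3), compared with 23.66% of 32851 mouse promoters of the same length. The CCAAT box was present in 4 of 7 (Ccna1, Hspa2, Cks2 and Nek2), compared with 33.85% of all promoters. The CHR element of cell cycle genes (TTTGAA or TTCGAA) was found in 0 of 7 and in 17.15% of all promoters. In Nek2 the MYB letters began 216 bases before the start and the CCAAT box 26 bases before it. Cks2 held CCAAT boxes 65 and 22 bases before the start, and Ccnb3 held MYB letters 134 and 37 bases before it. None of the motifs marked in the printed promoters overlapped another. A match of letters is no evidence of binding, and the start used for Hspa2 was not found in the GENCODE transcripts, so its matches rest on the RefSeq start alone. The stretches of Ccna1, Hspa2 and Pttg1 lie wholly inside the spans of their genes, so they precede internal starts. Those of Ccna1 and Pttg1 were found in GENCODE transcripts.

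The values were FPKM, the fragments of a gene divided by its length and by the size of its library, which sets genes of different length on one scale. The FPKM of a sample summed to between 463970 and 511274, and 14291 to 15040 genes per sample had at least 1 FPKM. The read depth behind these values is unknown. Pearson's r across genes between samples of one group ranged from 0.962 to 0.993. Differences were tested with limma on log2(FPKM + 1) over 15790 genes, and a gene passed at a Benjamini-Hochberg adjusted p under 0.05. Log2 changes below are on this scale, which understates the change of genes with low FPKM. The methods give 6 testes per treatment, with the experiment repeated 3 times, but no source used here says whether each sample is such a repeat or which animals it holds, so p-values measure the spread between these samples, which may be technical. In whole testes, fewer cells of a type and less RNA per cell cannot be told apart.

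Markers of other cell types moved with some of the groups. The 5 fat cell genes (such as Adipoq and Plin1) summed to between 37.1 and 237 FPKM in B0, 3.92 to 6.37 in A0 and 4.31 to 11.2 in BA50. Of these 5, 5 rose in B0 compared to A0 and 3 fell in BA50 compared to B0. Plin1 and Cidec reached 1 FPKM only in B0, so they entered the test solely through the group in which they were high. Sertoli cell genes summed to 2744, 2420 and 1043 FPKM in A10 replicates 1, 2 and 3, below the 3 A0 samples (3045 to 4207 FPKM), and to between 2413 and 3243 FPKM in A50. Clu alone held 2312, 2075 and 882 FPKM of the A10 sums, and 0 of 9 tested Sertoli cell genes passed in A10 against A0. Macrophage genes summed to between 151 and 177 FPKM in A50, below A0 (200 to 256 FPKM), and to between 100.2 and 206 FPKM in A10. Of the 5 macrophage genes, 0 passed in A50 against A0. No fat cell, Sertoli, Leydig, myoid, macrophage or erythrocyte gene of the lists was at 0 in every sample, and the part of these cells in the results below was not tested.

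After busulfan, 10 of 10 late spermatocyte and meiotic division genes were lower. Ccnb3 had at least 1 FPKM in 0 of 9 busulfan samples and in 9 of 9 untreated ones, so it entered the test only through the samples in which it was high, and it is described by its values. Averaged over the 3 AOS concentrations, 9 of the other 9 genes fell, against 24.8% of all tested genes, and their median log2 change was −0.91, against 0.01 over all genes (10 of 10 and −1.21 with Ccnb3). In 7 of the 10 genes, Ccnb3 among them, the 9 busulfan values lay below the 9 untreated values without overlap, as in 9.66% of all genes. Without Ccnb3, 7 of 9 genes fell in B0 compared to A0 (12.3% of all genes), 7 in BA10 compared to A10 (15.2%) and 7 in BA50 compared to A50 (16.2%), or 8 of 10 with it in each. The 3 values of the busulfan group lay below the 3 untreated values in 9, 9 and 10 genes, and did so in 22.7%, 20.2% and 25.7% of all genes. Ccnb3 is among the genes counted in each of these comparisons. At the limits in the study's methods (adjusted p at most 0.001 and a log2 change of at least 1), 5 genes fell in each of these comparisons: Fbxo43, Cks2, Mybl1, Nek2 and Ccnb3. Among all genes the share at those limits was 2.49% in B0 against A0, 3% in BA10 against A10, 3.36% in BA50 against A50 and 3.52% in the average.

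**Figure D1:**
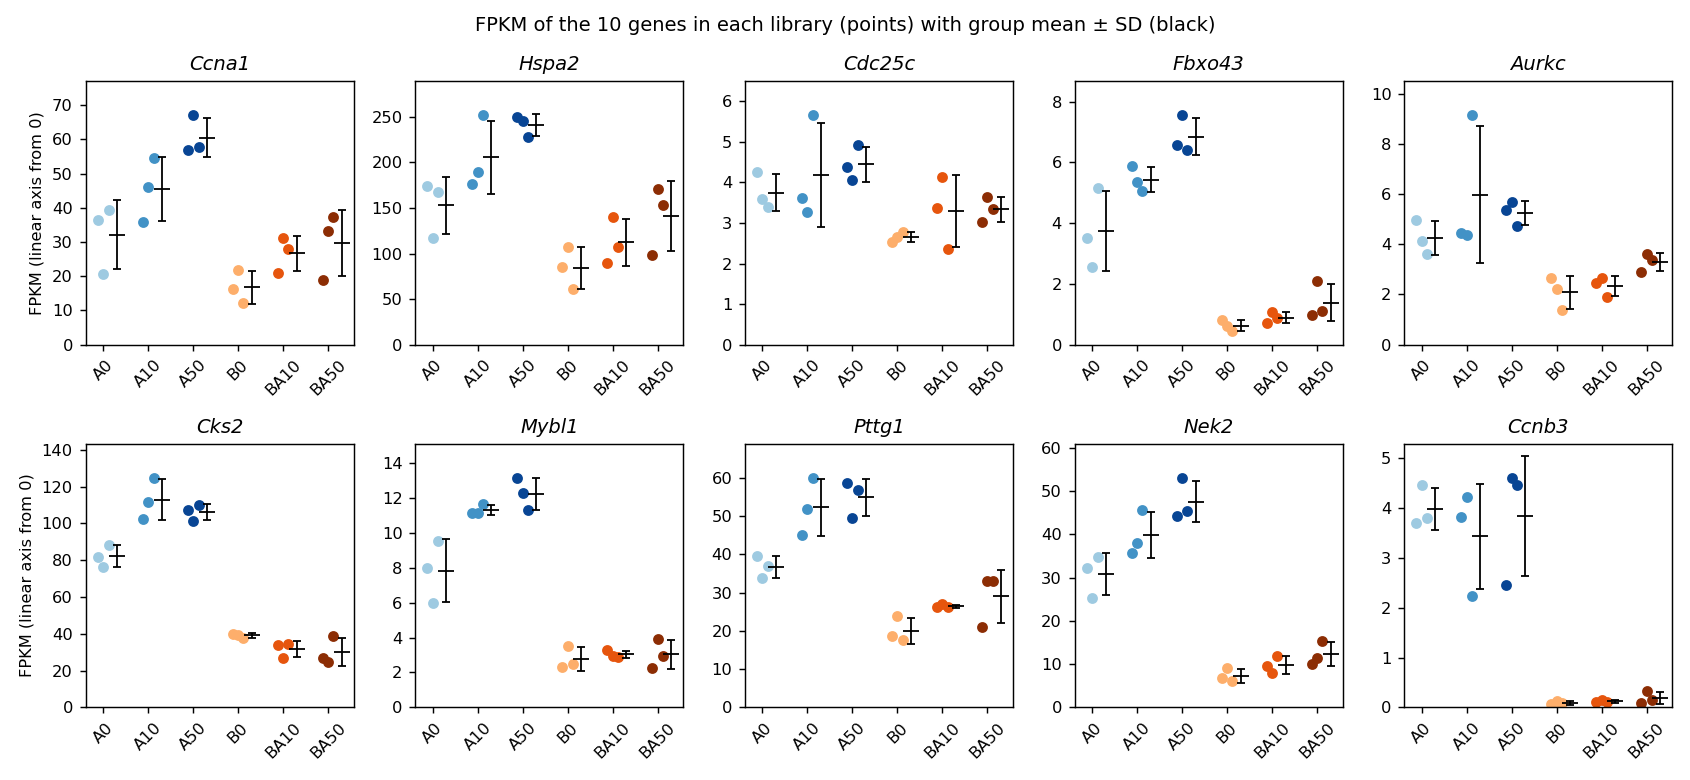
FPKM (linear axis from 0) of each of the 10 genes in the 3 samples of each group, with the group mean ± SD in black. The busulfan groups (orange to brown) lie below the untreated groups (blue), with overlapping values in Ccna1, Hspa2 and Cdc25c, and Ccnb3 is close to 0 after busulfan.

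The cyclins are the partners that switch on CDKs. Ccnb3, a cyclin of early meiotic prophase encoded on the X chromosome (chrX:6979652-7041635), was at 3.69, 4.46 and 3.80 FPKM in A0 and at 0.06, 0.13 and 0.09 FPKM in B0. It reached 0.11, 0.15 and 0.10 FPKM in BA10 and 0.09, 0.32 and 0.14 FPKM in BA50. The busulfan samples thus never came near the untreated ones, the lowest of which was at 2.24 FPKM. Ratios of group means were 42.7 for A0 to B0, 28.6 for A10 to BA10 and 21.0 for A50 to BA50. The log2 change averaged −2.05, a smaller ratio because 1 is added to each FPKM before the logarithm. Ccna1, the cyclin A of male germ cells (chr3:55045469-55057634), was at 36.58, 20.66 and 39.26 FPKM in A0 and at 16.31, 21.82 and 12.07 FPKM in B0. The lowest A0 value lay below the highest B0 value, and the adjusted p of this comparison was 0.0505. Over all 18 samples Ccna1 fell, from 46.1 ± 14.3 to 24.4 ± 8.42 FPKM (SD, n = 9 each), with a log2 change of −0.90 (SE 0.16, adjusted p = 0.000491).

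Of the partners that prime the CDKs, Cks2, a small subunit that meiotic cells need to leave metaphase I (chr13:51645232-51650662), was at 81.58, 76.46 and 88.32 FPKM in A0. It was at 40.13, 39.59 and 37.62 FPKM in B0, well apart from A0. The 9 busulfan samples held 24.82 to 40.13 FPKM and the 9 untreated ones 76.46 to 124.67 FPKM, with a log2 change of −1.56 (SE 0.08, adjusted p = 1.17e-09). Hspa2, the testis HSP70 chaperone that assembles active CDK1 with cyclin B (chr12:76403812-76406938), had the highest level of the 10 genes. It was at 174.72, 116.60 and 167.34 FPKM in A0 and at 84.78, 106.88 and 61.39 FPKM in B0, and the groups did not overlap. Its log2 change averaged −0.85 (SE 0.14, adjusted p = 0.000218), although BA50 reached 171.27 FPKM and so overlapped A0. Cdc25c, a phosphatase that activates CDK1 (chr18:34732993-34751564), changed least. It was at 4.26, 3.59 and 3.40 FPKM in A0 and at 2.53, 2.65 and 2.78 FPKM in B0, without overlap. It passed in no single busulfan comparison (adjusted p from 0.174 to 0.293) and in the average only narrowly, at −0.32 (SE 0.096, adjusted p = 0.0159). That pass was lost after quantile normalization of the samples (adjusted p = 0.0924).

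Among the genes that act at the divisions themselves, Nek2, a centrosome kinase (chr1:191821449-191833049), was at 32.35, 25.31 and 34.85 FPKM in A0 and at 6.82, 9.10 and 6.01 FPKM in B0. The highest busulfan sample, 15.36 FPKM in BA50, lay well under the lowest untreated one, and the log2 change averaged −1.92 (SE 0.11, adjusted p = 2.14e-09). Fbxo43, the gene of EMI2, an inhibitor of the anaphase-promoting complex (chr15:36150060-36169940), was at 3.51, 2.56 and 5.17 FPKM in A0 and at 0.83, 0.60 and 0.46 FPKM in B0. It fell 5.51-fold over all samples (log2 change −1.67, SE 0.11, adjusted p = 1.56e-08). Pttg1, or securin, which blocks the cohesin-cutting protease (chr11:43420244-43427463), was at 39.59, 33.80 and 36.90 FPKM in A0 and at 18.75, 23.93 and 17.51 FPKM in B0. The groups were apart, and Pttg1 fell in each of the 3 busulfan comparisons (average −0.91, SE 0.09, adjusted p = 1.70e-06). Aurkc, the Aurora kinase of meiotic chromosomes (chr7:6995347-7003091), was at 4.98, 4.13 and 3.62 FPKM in A0 and at 2.66, 2.22 and 1.37 FPKM in B0. It fell on average (−0.78, SE 0.13, adjusted p = 0.00017), but not in BA50 compared to A50 (−0.55, SE 0.22, adjusted p = 0.097).

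Mybl1, the gene of A-MYB (chr1:9667407-9700439), was at 7.96, 5.99 and 9.54 FPKM in A0 and at 2.29, 3.54 and 2.47 FPKM in B0. Its highest busulfan value was 3.93 FPKM, under the lowest untreated value of 5.99 FPKM. The fall averaged −1.52 (SE 0.10, adjusted p = 9.54e-09). Exact two-sided permutation tests were run within AOS concentration, over 8000 divisions of the samples. They gave the smallest p they can give, 0.00025, for Hspa2, Fbxo43, Aurkc, Cks2, Mybl1, Pttg1 and Nek2. No p is given for Ccnb3, which entered only through the untreated samples. The p was 0.0005 for Ccna1 and 0.00275 for Cdc25c.

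**Figure D2:**
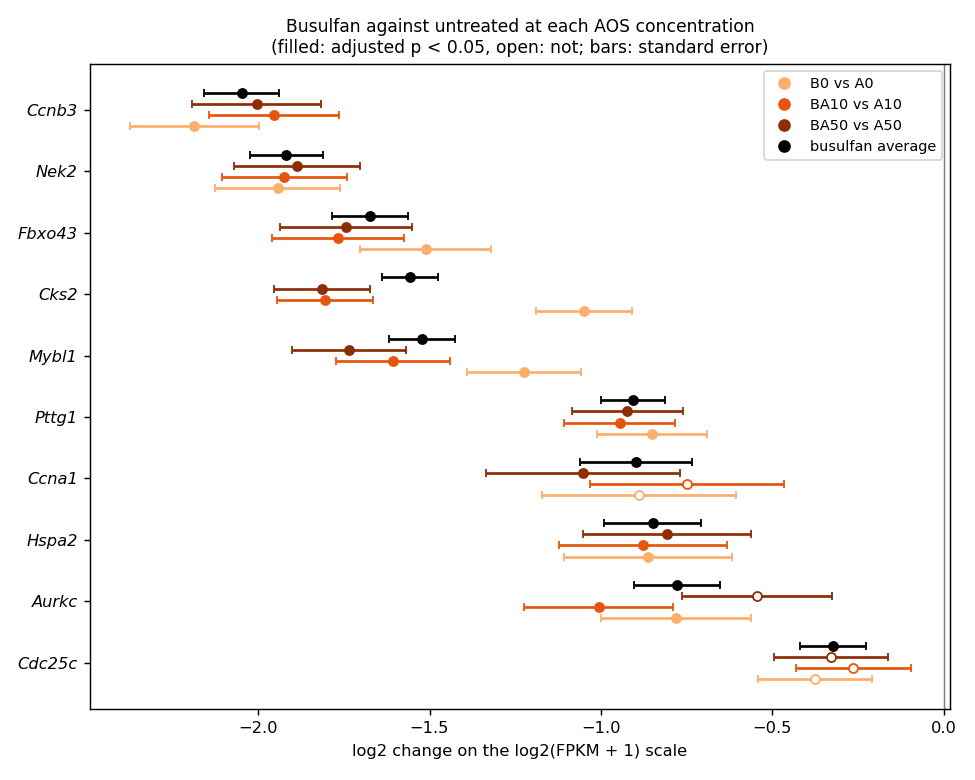
Log2 change on the log2(FPKM + 1) scale (x axis) of each gene in B0 against A0, BA10 against A10, BA50 against A50 and their average, with the standard error as bars and filled points where the adjusted p was under 0.05. Ccnb3, Nek2, Fbxo43, Cks2 and Mybl1 lie furthest to the left and Cdc25c nearest to 0, and the Cks2 value at 0 μg/mL AOS stands apart from the other Cks2 values.

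In a fit of only the 2 groups compared, Hspa2 and Aurkc no longer passed in B0 against A0 (adjusted p = 0.0757 and 0.0522) or in BA10 against A10 (0.062 and 0.0856), and Aurkc did pass in BA50 against A50 (0.0238). In B0 compared to A0, the calls of 3 genes also hung on single samples. Hspa2 (adjusted p = 0.028 with all samples) no longer passed without A0 replicate 1, A0 replicate 3, B0 replicate 1 or B0 replicate 3 (adjusted p from 0.0653 to 0.142). Aurkc no longer passed without A0 replicate 1, A0 replicate 2 or B0 replicate 3 (adjusted p from 0.0582 to 0.132). Ccna1 did pass without A0 replicate 2 (adjusted p = 0.0131) or B0 replicate 2 (adjusted p = 0.0314).

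In addition, 9 relatives of the genes, from lists of the division machinery, were set beside them. The cyclin genes Ccna2, Ccnb1 and Ccnb2 fell by 0.62, 0.61 and 0.51 on the log2 scale in the busulfan average (adjusted p = 0.000625, 1.86e-05 and 0.0035). Cks1b, the relative of Cks2, was at 18.9 ± 3.00 FPKM in the untreated and 17.5 ± 2.79 FPKM in the busulfan samples (SD, n = 9 each) and did not pass (adjusted p = 0.433). Of the CDC25 family, Cdc25a fell by 0.32 (adjusted p = 0.0011) and Cdc25b did not pass (−0.06, adjusted p = 0.518). Of the Aurora kinases, Aurka fell by 1.53 (adjusted p = 3.89e-08) and Aurkb by 0.89 (adjusted p = 3.06e-08). Fbxo5, an EMI gene like Fbxo43, fell by 0.47 (adjusted p = 0.00123). How reads were shared between such relatives in the authors' counting is not given in the sources used here.

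Of the 32 division machinery genes, 26 fell in the busulfan average and none rose (median −0.80). The 3 largest falls were those of Cdca8 (borealin of the chromosomal passenger complex, −2.06), Ccne2 (cyclin E2, −1.96) and Sgo2a (a shugoshin that guards centromeric cohesin, −1.92). Of the 15 pachytene spermatocyte genes, 12 fell, led by Piwil1 (a piRNA-binding protein, −3.44), Boll (an RNA-binding protein, −1.27) and Clgn (a chaperone of the endoplasmic reticulum, −1.04). Meiotic prophase genes fell in 14 of 16 (median −1.50), spermatogonium genes in 8 of 11 (median −1.32) and proliferation genes in 6 of 6 (median −1.09). Like Ccnb3, Dmc1, Rad21l, Stra8, Sohlh1 and Lin28a reached 1 FPKM in no busulfan sample. Dmrt1 did so only in B0 replicate 1 (1.03 FPKM) and Sgo1 only in BA50 replicate 1 (1.11 FPKM). These genes entered the test through the untreated samples alone, and the list counts and medians include them. Of the 12 spermatid genes none fell and 1 rose (Tssk6, named for being the single call), with a median of 0.39. Their median was −0.07 in B0 against A0, 0.34 in BA10 against A10 and 0.89 in BA50 against A50. As higher, 13.3% of all genes passed, and 1 of 9 Sertoli cell genes, 1 of 6 Leydig cell genes and 0 of 5 myoid and 0 of 5 macrophage genes did so, with none lower. Fat cell genes rose in 5 of 5 (median 0.99), with the B0 levels given above and with Plin1 and Cidec tested only through B0. Of the 5, 0 passed in BA10 against A10 or in BA50 against A50.

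**Figure D3:**
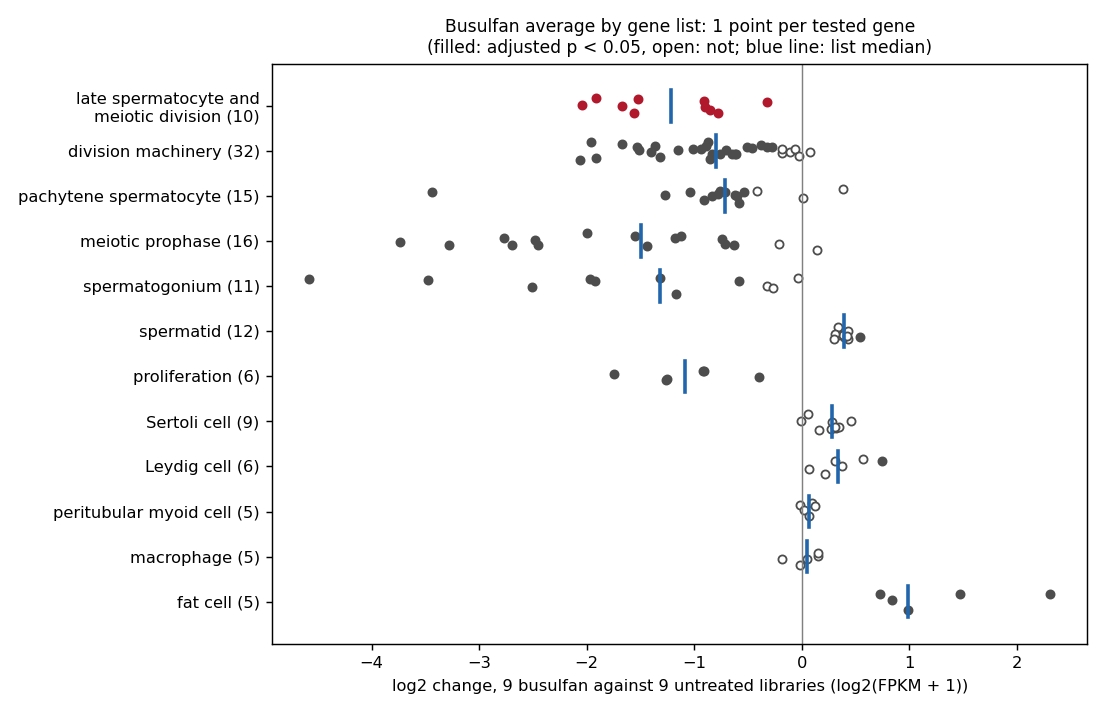
Log2 change of each tested gene in the average of the 3 busulfan comparisons (x axis), by gene list, with filled points where the adjusted p was under 0.05 and a blue line at the list median. The 10 late spermatocyte and meiotic division genes (red) lie below 0 with the prophase and spermatogonium genes, while the spermatid genes lie above 0.

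With AOS but no busulfan, none of the 10 genes passed. In A10 compared to A0 the share of genes that passed was 0% over all genes (0 of 15790), and 4 of the 10 genes were at an unadjusted p under 0.05, as were 15.2% of all genes. Of the 10, 9 had a higher mean in A10, with a median log2 change of 0.44 against −0.06 over all genes, and 5 (Hspa2, Cks2, Mybl1, Pttg1 and Nek2) had 3 A10 values above the 3 A0 values, as had 7.81% of all genes. Without A0 replicate 2, the sample lowest in 7 of the 10 genes in A0, the median was 0.27. Cks2 was at 102.37, 111.90 and 124.67 FPKM in A10 (log2 change 0.45, SE 0.14, adjusted p = 0.322). In A50 compared to A0 the share that passed was again 0% (0 of 15790), and 7 of the 10 were at an unadjusted p under 0.05, against 15.6% of all genes. Of the 10, 9 had a higher mean in A50 (median 0.58, all genes −0.06), and 7 (Ccna1, Hspa2, Fbxo43, Cks2, Mybl1, Pttg1 and Nek2) did not overlap A0, as in 17.6% of all genes. Ccna1 was at 56.77, 67.01 and 57.70 FPKM in A50, 1.88-fold its A0 mean (log2 change 0.94, SE 0.28, adjusted p = 0.209). Mybl1 was at 13.12, 12.27 and 11.29 FPKM in A50 (0.60, SE 0.17, adjusted p = 0.208), and Fbxo43 had the smallest adjusted p, 0.199 (0.76, SE 0.19). The summed Sertoli cell genes in A10 and the summed macrophage genes in A50 were lower than in A0, as given above. The part of these cells in these values was not tested. Ccnb3 was the gene with a lower mean in both, at 3.43 ± 1.05 FPKM in A10 and 3.84 ± 1.20 FPKM in A50, against 3.98 ± 0.416 FPKM in A0 (SD, n = 3 each).

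After busulfan, AOS again changed none of the 10 genes past the threshold when all samples were used. In BA10 compared to B0, 0.0253% of all genes passed and none of the 10 did, with 9 means higher and a median of 0.21 against −0.03 over all genes. That median was 0.14 without BA10 replicate 2 and 0.34 with a pseudocount of 0.1. Pttg1 was the single gene of the 10 with BA10 values above B0 (26.30, 26.89 and 26.20 against 18.75, 23.93 and 17.51 FPKM, adjusted p = 0.749), where 3.64% of all genes were so. Cks2 was the single one below, at 33.78, 26.84 and 34.50 FPKM against 40.13, 39.59 and 37.62 FPKM (−0.30, SE 0.14, adjusted p = 0.749), where 7.75% of all genes were so. In BA50 compared to B0, 0.095% of all genes passed and 0 of the 10 did, while 7 of the 10 and 24.3% of all genes were at an unadjusted p under 0.05. Of the 10, 9 means were higher in BA50 (median 0.49), and 4 (Cdc25c, Fbxo43, Aurkc and Nek2) did not overlap, against 11.2% of all genes, while 0 of the 10 lay below without overlap, against 13.5%. Nek2 was at 10.15, 11.32 and 15.36 FPKM in BA50, above B0 (0.67, SE 0.18, adjusted p = 0.104), and Hspa2 was at 98.01, 171.27 and 153.86 FPKM (0.73, SE 0.24, adjusted p = 0.121). The low values came from BA50 replicate 1, which was the lowest BA50 sample in 9 of the 10 genes, Cks2 being the exception.

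Without BA50 replicate 1, 4 genes rose in BA50 compared to B0, where 3.88% of all genes rose. They were Pttg1 (0.70, SE 0.14, adjusted p = 0.0365), Hspa2 (0.97, SE 0.24, adjusted p = 0.0426), Nek2 (0.79, SE 0.20, adjusted p = 0.0433) and Ccna1 (1.07, SE 0.28, adjusted p = 0.045). The sample left out held the lowest BA50 value of each of these 4 genes, so leaving it out raised their BA50 means. Because the sample singled out here is low in the genes tested, these adjusted p cannot decide whether AOS raised them. Spermatid genes summed to between 5418 and 11660 FPKM in BA50 and between 2524 and 3641 FPKM in B0, and pachytene spermatocyte genes to between 2344 and 3830 FPKM in BA50 and between 1410 and 2475 FPKM in B0. These sums include BA50 replicate 1, and Prm2 alone held 4128 FPKM of the highest spermatid sum, in BA50 replicate 2. With all samples, 0 of 12 spermatid and 0 of 15 pachytene spermatocyte genes passed in BA50 against B0. The fat cell genes named above were lower in BA50 than in B0, and their part in these values was not tested.

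**Figure D4:**
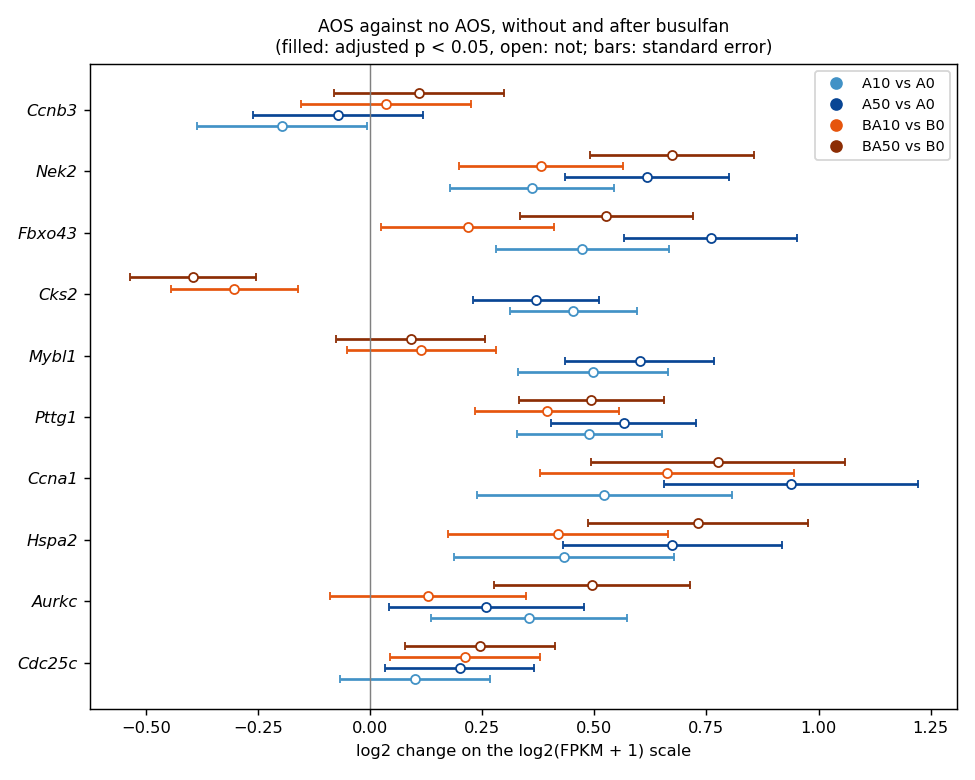
Log2 change on the log2(FPKM + 1) scale (x axis) of each gene with AOS against no AOS, without busulfan (blue) and after it (orange and brown), with the standard error as bars. All points are open, since no gene reached an adjusted p under 0.05, and Cks2 lies to the right of 0 without busulfan and to the left after it.

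The AOS change after busulfan was also set against the AOS change without it. No gene of the table passed at either concentration (0% of 15790 at 10 μg/mL and 0% at 50 μg/mL), and among the 10 genes 1 and 2 were at an unadjusted p under 0.05, against 3.97% and 6.28% of all genes. Cks2 gave the largest difference at each concentration, −0.76 at 10 μg/mL (SE 0.20, adjusted p = 0.91) and −0.76 at 50 μg/mL (SE 0.20, adjusted p = 0.564). Its level with AOS was higher than A0 without busulfan, at 107.19, 101.59 and 110.19 FPKM in A50, while after busulfan it was at 26.74, 24.82 and 38.64 FPKM in BA50, where the highest value overlapped B0. Mybl1 came next, with −0.38 at 10 μg/mL and −0.51 at 50 μg/mL (SE 0.24, adjusted p = 0.91 and 0.785). For the other genes the difference lay between −0.26 and 0.24 with an SE of 0.23 to 0.40, so that differences of this size could not be told from the spread.

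The order of the 6 group means was much alike among the genes. The 3 untreated groups stood above the 3 busulfan groups in 10 of 10, and in 6 of 10 the order was A50, A10, A0, BA50, BA10, B0. A50 was highest in 7, and B0 was lowest in 9, the exception being Cks2, in which B0 was the highest of the busulfan groups. Neighbours in this order often overlapped: A10 and A0 overlapped in Ccna1, Cdc25c and Fbxo43, among others, while A0 and BA50 overlapped in Ccna1, Hspa2 and Cdc25c. The mean level over all samples placed Hspa2 at the percentile 98.0 of the 22657 genes of the table, Cks2 at 94.1 and Ccnb3 at 40.8.

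Within groups, the genes moved together only in part from sample to sample. The 45 pairs of genes had a median r of 0.28 (−0.48 to 0.93), with 33 above 0. Over the 18 deviations from the group means on the log2(FPKM + 1) scale, Ccna1 had an r of 0.92 with the mean of the other 9 genes, Hspa2 of 0.89 and Pttg1 of 0.82. Mybl1 (0.67) and Nek2 (0.62) followed, then Aurkc (0.44), Fbxo43 (0.40), Cdc25c (0.26), Cks2 (0.21) and Ccnb3 (−0.28). Cks2 moved with the others in the 9 untreated samples (0.77) but not in the 9 busulfan samples (0.03), and Ccnb3 had an r of −0.62 in the untreated and 0.61 in the busulfan samples, where its FPKM were close to 0. Genes of one sample share its RNA and its depth, so these values are a description. A0 replicate 2, B0 replicate 3 and BA50 replicate 1 were low in most of the genes, and A10 replicate 3 and B0 replicate 2 were high in most. A10 replicate 3, with 9.13 FPKM of Aurkc against 4.45 and 4.36 in the other A10 samples, held the highest level of Ccna1, Hspa2, Cdc25c, Aurkc, Cks2, Mybl1, Pttg1 and Nek2 in its group.

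**Figure D5:**
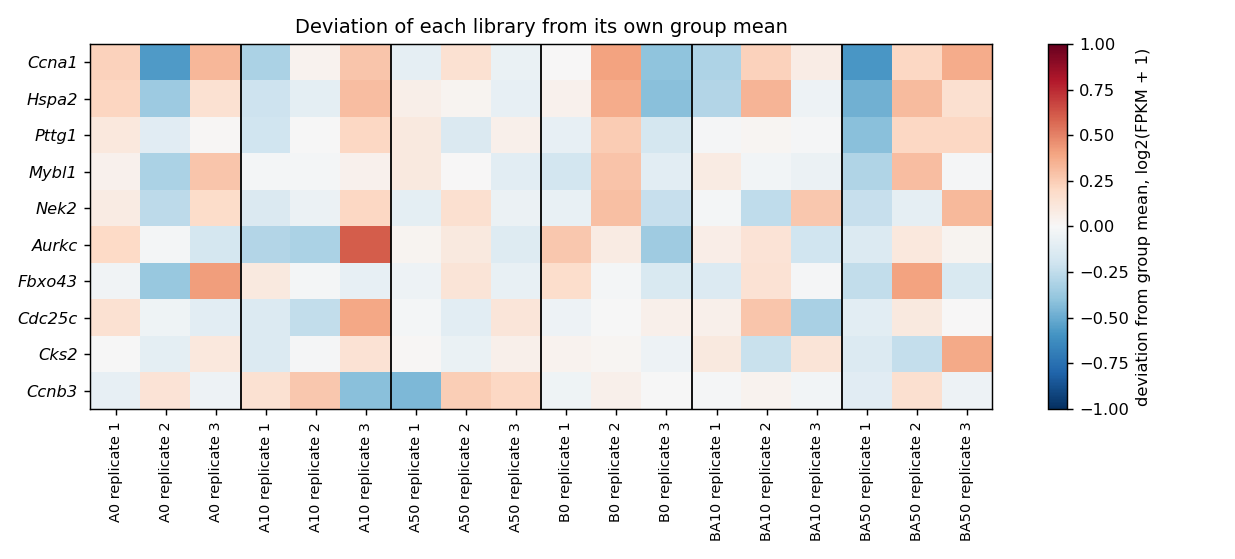
Deviation of each sample from the mean of its own group on the log2(FPKM + 1) scale (color), with genes in rows and the 18 samples in columns, 3 per group between the black lines. A0 replicate 2 and BA50 replicate 1 are blue and B0 replicate 2 is red in most rows, and Ccnb3 runs against the other rows in A10 replicate 3.

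The genes whose deviations ran closest to the mean of the 10 were Cdhr4 (r = 0.97), Cyct (0.96), Wdr20rt (0.96), 1700010B08Rik (0.96) and Ppp3r2 (0.96), over 18 samples. In the 9 untreated samples their r ranged from 0.95 to 0.99 and in the 9 busulfan samples from 0.95 to 0.98. By list, the median r with the mean of the 10 was 0.88 for pachytene spermatocyte genes, 0.62 for meiotic prophase genes, 0.61 for spermatid genes and 0.60 for the division machinery. It was −0.44 for spermatogonium, −0.46 for Sertoli cell, −0.47 for macrophage and −0.50 for proliferation genes, against −0.19 over all tested genes.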

How the data were processed

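RNA-seq values of 18 cultured testis samples in 6 groups of 3 were used, grouped by the sample labels. The authors deposited FPKM per gene and sample. Their supplementary methods name poly(A) RNA, SOAPaligner and RPKM, while the submitters' processing notes list HISAT, Bowtie2, RSEM and GRCm38.p5, and which of these made the table is not settled in the sources used here. The labels give AOS in μg/mL, the design text of the series in mg/kg. The read test of the methods needs counts, and counts could not be worked back from the FPKM (19.7% of low values fell on whole reads at the best scale, against 17.2% at a typical one), so depth is unknown and precision rests on the 3 samples of a group. Gene numbers were matched to RefSeq symbols (GRCm38.p6), with 20656 of 20811 matched.

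The 15790 genes that reached 1 FPKM in 3 or more samples were tested with limma 3.58.1 in R 4.3.3 (eBayes with trend, 1 coefficient per group, 12 residual degrees of freedom) on log2(FPKM + 1), with Benjamini-Hochberg adjustment over all of them. The fit was tested on simulated data. Python 3.11.15 with pandas 2.3.3 and matplotlib 3.10.9 handled the tables and drew the plots. The genes followed and the gene lists were chosen with earlier results of these data known. All 10 genes are named, with their paralogs from the lists, the 3 largest passing changes of the division machinery and pachytene lists, and the 5 genes with the highest r to the mean deviation of the 10. Alternatives were the limits of the methods, the replicate block, a pseudocount of 0.1, a fit restricted to the groups compared, no filter, a filter at a mean of 5 FPKM, quantile normalization, eBayes without trend, and each replicate left out in turn. The replicate block within B0 and BA50 alone was added after seeing the data. Same-numbered samples deviated together with r over 0.1 in every pair only between BA50 and B0 (0.56, 0.42 and 0.14), where pairing comes from the replicate numbers.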

Additional observations from a re-analysis of the deposited data

Results flagged for a closer look

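Cks2 was flagged because its AOS change differed between testes with and without busulfan. At 10 μg/mL AOS, the change after busulfan minus the change without it was −0.76 on the log2(FPKM + 1) scale (SE 0.20, adjusted p = 0.91 from limma, over all genes). The 3 A10 values (102.37, 111.90 and 124.67 FPKM) lay above the 3 A0 values, and the 3 BA10 values (33.78, 26.84 and 34.50 FPKM) lay below the 3 B0 values. The difference did not pass the adjustment. At 50 μg/mL it was −0.76 as well (adjusted p = 0.564), with the same A0 and B0 samples in both.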

How the results depend on the processing

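Of 164 counts of passing genes under the alternatives, 156 stayed within 1.5 times the count reported, and 152 of 154 medians moved by less than the spread between replicates. In the busulfan average only, 235 of 236 changes of single genes kept their direction and side of the threshold. Many of the 156 counts are those of AOS comparisons that were 0 and stayed at 0. The tally of counts therefore says little about the busulfan calls. At the limits of the methods, 5 of the 10 genes fell in B0 against A0, 5 in BA10 against A10, 5 in BA50 against A50 and 5 in the busulfan average. Counts out of 10 genes include Ccnb3, which entered the test only through the untreated samples. With a filter at a mean of 5 FPKM, 6 of the 10 genes were left to test, and 5, 5 and 6 fell in B0 against A0, BA10 against A10 and the average. Under that filter 1478, 2328 and 4651 of all genes passed in either direction. A pseudocount of 0.1 moved the median of BA10 against A10 to −1.54. Quantile normalization left Cdc25c at −0.23 in the average (adjusted p = 0.0924), and it moved the median of all genes by less than 0.1. Leaving out 1 sample at a time gave 0 to 4 genes passing in BA50 against B0, with 4 only without BA50 replicate 1, and medians of −1.45 to −1.17 in BA50 against A50. Fitting only the groups compared gave 6, 6 and 9 of the 10 genes in B0 against A0, BA10 against A10 and BA50 against A50. Leaving out samples gave 6 to 9 genes in B0 against A0, 7 to 8 in BA10 against A10, 6 to 8 in BA50 against A50 and 10 in each case in the average. Of all genes, 1450 to 1907 then passed in either direction in B0 against A0 and 2069 to 3714 in BA10 against A10. The cause of these shifts was not tested, apart from the fewer genes under the stricter filter.

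With the replicate block, 0 genes passed in BA50 against B0 (median 0.49), as within B0 and BA50 alone, and 0 of 100 calls (10 genes in 10 comparisons) changed with the block. In the other comparisons the numbers are shared only as numbers: pairs of B0 and A0 had an r of −0.36, −0.43 and 0.17. Depth limits are unknown for FPKM, and values such as those of Ccnb3 after busulfan rest on 2 decimals.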
